A study of Mus musculus with 18 samples.

Results

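A set of 9 genes that carry, take up or make retinoids was followed through the 3 mouse fat depots of the series: the carriers Rbp4, Rbp7, Crabp1 and Crabp2, the membrane receptor Stra6, and the enzymes Rdh10, Aldh1a1, Aldh1a2 and Aldh1a3. They were matched by gene symbol, and all 9 were found among the 45151 symbols listed in both kinds of file. RNA-seq had been run on 18 samples, 6 from each depot, of wild type male mice of the C57BL/6 strain (C57BL/6J per the methods), aged 16 weeks and fed regular chow. For inguinal (iWAT) and epididymal (eWAT) white fat the RNA came from mature adipocytes that float after digestion of the tissue. For brown fat (BAT) the source is given as tissue, although a cell type entry calls it adipocytes. Where BAT is compared with white adipocytes, the depot cannot be told apart from the way the sample was prepared. The iWAT and BAT files list genes with merged exons, and the eWAT files list single transcripts, so that in eWAT the most-read transcript stands for each gene, and this way of counting cannot be told apart from the depot either. Levels are given as RPKM, which are reads scaled to the listed length and to the total of reads of the sample, and differences as log2 fold changes of edgeR's quasi-likelihood test on the reads, with Benjamini-Hochberg adjusted p-values over all genes tested.

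Retinol, the transport form of vitamin A, leaves the liver bound to retinol-binding protein 4 (the product of Rbp4), and fat is a second site where this carrier is made. Inside a cell, retinol is oxidized to retinal by enzymes such as the product of Rdh10, and retinal is oxidized irreversibly to retinoic acid by the Aldh1a enzymes. Retinoic acid binds nuclear receptors of the Rar family, which pair with Rxr receptors, and it is known to act on the differentiation and the thermogenic genes of adipocytes.

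The totals of reads behind the RPKM were between 22929576 and 32141048 in iWAT, between 26607733 and 34048018 in eWAT and between 26706786 and 34512470 in BAT. Labels were checked with lists of 5 markers for each cell type. The summed RPKM of the brown adipocyte list (Ucp1, Cidea, Dio2, Cox8b, Cox7a1) was 3004 to 3746 in BAT, 79.7 to 126 in iWAT and 14.1 to 27.7 in eWAT. The summed RPKM of the adipocyte list (Adipoq, Plin1, Cidec, Fabp4, Lep) was 10753 to 16455 in iWAT, 9091 to 16665 in eWAT and 5655 to 7026 in BAT. A pair of samples stood apart. In eWAT replicate 15 all 5 macrophage markers were at their highest of the depot (summed RPKM 1806, against 122 to 430 in the other eWAT samples), and its adipocyte sum was the lowest. In BAT replicate 12 the skeletal muscle sum was 1340, against 0.550 to 119 in the other BAT samples. Epididymis markers summed to 82.4 in eWAT replicate 14, 70.3 in eWAT replicate 15 and 3.56 in eWAT replicate 13, and to at most 0.00864 in any other sample of the 3 depots.

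Rbp4 and Aldh1a1 were the retinoid genes with the highest levels in both kinds of white adipocytes, with an average RPKM for Rbp4 of 158 ± 26.7 (SD, n = 6) in the inguinal and 246 ± 71.0 (SD, n = 6) in the epididymal depot, and for Aldh1a1 of 59.2 ± 12.8 (SD, n = 6) and 75.2 ± 16.7 (SD, n = 6). In BAT the order was Rbp4 (19.4 ± 6.68, SD, n = 6), Rbp7 (8.64 ± 8.49, SD, n = 6) and Aldh1a1 (4.33 ± 2.24, SD, n = 6). The ranges of these 3 neighbours overlapped in BAT, whereas in both white depots Rbp4 was above Aldh1a1, and Aldh1a1 above Rbp7, in all 6 samples with no overlap of their ranges. All 9 are annotated as protein-coding genes, with 4 to 24 exons in the merged rows. Counting genes with a mean RPKM of at least 1, 4 of the 9 were reached in BAT and also 4 in iWAT, and 5 were reached in eWAT, where Aldh1a2 was added. Ranked by mean RPKM among all symbols, Rbp4 was at place 1398 in BAT, 144 in eWAT and 204 in iWAT.

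**Figure D1:**
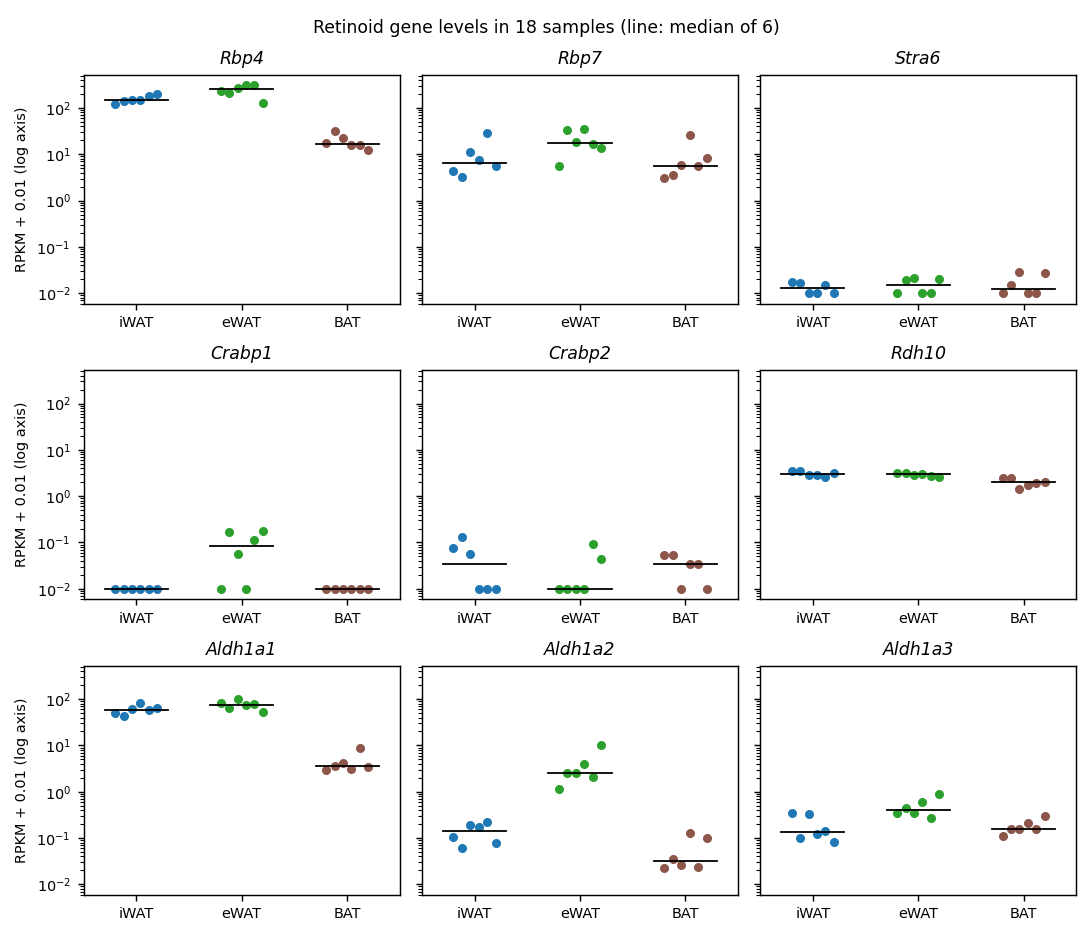
Level of each of the 9 genes in each of the 18 samples, as RPKM + 0.01 on a log axis, by depot, with a line at the median of 6 samples. Rbp4 and Aldh1a1 lie higher in every iWAT and eWAT sample than in any BAT sample, Aldh1a2 stands out in eWAT only, and Stra6, Crabp1 and Crabp2 lie at or near the bottom of the axis, where a value of 0.01 is 0 reads.

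Of the 9 genes, 5 had at least 10 reads in at least 6 samples of iWAT and BAT and were tested between these depots, and 6 were tested in the fits that include eWAT. Between iWAT and BAT 3 of 5 passed an adjusted p of 0.05 in edgeR's quasi-likelihood test, all of them higher in iWAT (Rbp4, Aldh1a1, Rdh10). Over all 19733 genes tested there 67.6% passed, 34.0% as higher and 33.6% as lower in iWAT. Between eWAT and BAT 3 of 6 passed, all higher in eWAT (Rbp4, Aldh1a1, and Aldh1a2, which had enough reads to be tested only through eWAT), where 70.3% of 18383 genes passed, 35.6% as higher and 34.7% as lower in eWAT. Between iWAT and eWAT 2 of 6 passed, Aldh1a2 lower and Rdh10 higher in iWAT, where 25.6% of 18383 genes passed, 13.4% as higher and 12.3% as lower in iWAT. Without eWAT replicate 15 and BAT replicate 12 the counts were 2, 3 and 2, beside 12307 of 19148, 12058 of 17860 and 4031 of 17860 genes in all, where Rdh10 no longer passed between iWAT and BAT, and the 2 between the white depots were Aldh1a2 and Rbp4, both lower in iWAT. On log2(RPKM + 0.1) with limma, which takes row length into account and uses no TMM scaling, all 6 genes passed as higher in eWAT than in BAT, in a fit where 16315 of 21148 genes passed, 12192 as higher and 4123 as lower, and where the median over all genes was 0.64. On reads without TMM scaling it was 5 of 6, beside 8946 genes higher and 4542 lower in eWAT, against 6541 and 6375 with scaling. For iWAT against BAT 9107 genes were higher and 4732 lower without scaling, against 6711 and 6626 with it. With so many genes passing between depots, these counts by themselves do not set the retinoid genes apart. Each pair of these comparisons shares the 6 samples of a depot.

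**Figure D2:**
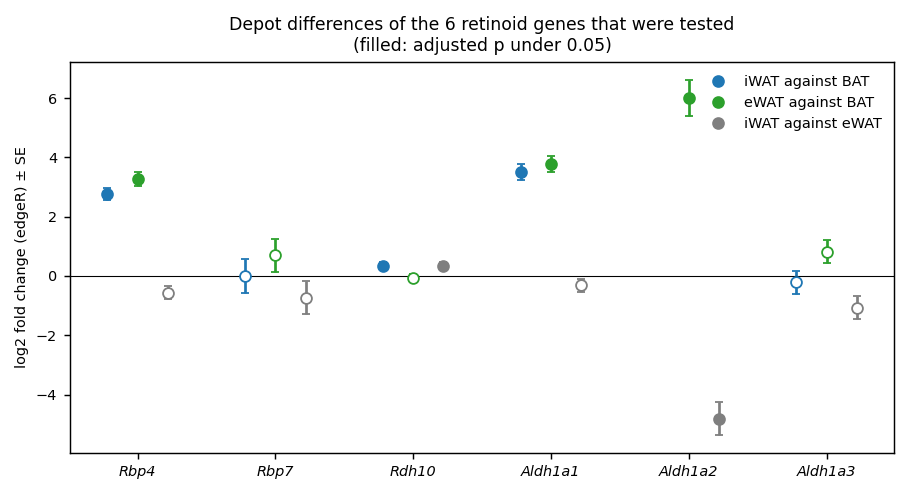
log2 fold change ± SE from edgeR for the 6 genes with enough reads, in the 3 comparisons of 6 samples with 6, filled where the adjusted p is under 0.05. Rbp4 and Aldh1a1 lie near 3 to 4 in both comparisons with BAT and near 0 between the white depots, and Aldh1a2 lies at 6.01 for eWAT against BAT and at -4.81 for iWAT against eWAT.

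Rbp4 (gene ID 19662, mm9 chr19:38191110-38199811, minus strand) encodes the retinol carrier of plasma, and RNA for it was far more abundant in white adipocytes than in BAT. The lowest, median and highest RPKM were 12.7, 16.9 and 31.2 in BAT, 124, 150 and 197 in iWAT, and 128, 257 and 315 in eWAT. Every white adipocyte sample was above every BAT sample. Its reads in iWAT were 6.76-fold those in BAT (2.76 ± 0.21 SE on the log2 scale, adjusted p = 4.11e-08, edgeR) and in eWAT 9.63-fold those in BAT (3.27 ± 0.24 SE, adjusted p = 6.61e-10, edgeR). Between iWAT and eWAT the ranges overlapped, and the log2 fold change of -0.56 ± 0.22 SE did not pass (adjusted p = 0.0663, edgeR). The lowest eWAT value was that of replicate 15, and without this sample the same difference was -0.69 with an adjusted p of 0.0157 (edgeR). The adipocyte marker sum was also lowest in that sample, and its part in the Rbp4 level was not tested. Liver is the best known source of RBP4, and the 5 hepatocyte markers (Alb, Apoa1, Ttr, Serpina1a, Fgb) summed to an RPKM of 9.24 to 12.8 in iWAT, 1.85 to 3.78 in eWAT and 0.0613 to 0.134 in BAT. Most of this was Alb, with 547 to 753 reads in iWAT, 79 to 176 in eWAT and 0 to 5 in BAT, and Serpina1a had 32 to 57, 21 to 41 and 3 to 7 reads. Apoa1 had at most 4 reads, Ttr at most 1 and Fgb 0 in all 18 samples. The sum was highest in iWAT and Rbp4 in eWAT, both were lowest in BAT, and the part of this in the Rbp4 level was not tested. As bulk RNA was measured, fewer cells of a type and less RNA per cell cannot be told apart for any gene described here.

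The eWAT files also separate the transcripts of Rbp4. A longer RefSeq transcript begins upstream of a shorter one (mm9 start 38199301). On the longer row (1243 bases) there were 6 to 22 more reads per sample (median 16.5) than on the shorter one (930 bases). The rows are not nested, since the shorter transcript starts within the first intron of the longer one. Each therefore holds first bases that the other lacks, and the 6 to 22 reads are a net difference. How many reads fell on the first bases of each transcript cannot be read from it. A further limit is that few reads may fall on the first bases of any transcript. The 250 bases before the start of the shorter transcript (mm9 chr19:38199302-38199551, minus strand, shown 5′ to 3′ because the shorter row held nearly as many reads in eWAT as the longer one) hold a TATA box, TATAAA, 28 bases before the start, set in capitals:
Rbp4: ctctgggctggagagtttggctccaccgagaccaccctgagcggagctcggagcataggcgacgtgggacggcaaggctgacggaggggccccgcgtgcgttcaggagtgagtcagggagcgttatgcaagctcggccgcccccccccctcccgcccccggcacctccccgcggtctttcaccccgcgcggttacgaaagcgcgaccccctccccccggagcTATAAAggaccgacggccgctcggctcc
This window lies in the first exon and the first intron of the longer transcript, and 70.8% of its bases are G or C. Sequences of this kind were available from RefSeq (GRCm38.p6) for 11 start sites of 6 of the 9 genes, and each was found once, base for base, in the mm9 genome. TATAAA on either strand was in 1 of the 11 windows and in 12.4% of all 32851 windows of this length. No window of the 11 held AGGTCA, the core of retinoic acid receptor elements, on either strand, nor the direct repeats DR1, DR2 or DR5, which each hold this core in tandem. Among all windows 14.02% held AGGTCA and each of the repeats was in 3 to 11 windows. At such shares their absence from the 11 windows says little. Only exact letters were searched, so elements that vary from them were not looked for.

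Rbp7 (gene ID 63954, mm9 chr4:148823796-148829087, minus strand) encodes a retinol carrier that stays inside the cell and is known from fat and from capillary endothelium. Its level varied more between samples of a depot than between depots. The lowest, median and highest RPKM were 3.11, 5.65 and 25.5 in BAT, 3.16, 6.51 and 28.5 in iWAT, and 5.71, 17.7 and 35.9 in eWAT. The ranges of all 3 depots overlapped, and the highest sample of a depot was 9.05-fold (iWAT), 6.30-fold (eWAT) and 8.22-fold (BAT) above the lowest. No comparison passed in edgeR's test (log2 fold changes of 0.01 ± 0.57 SE for iWAT against BAT with an adjusted p of 0.988, 0.70 ± 0.56 SE for eWAT against BAT with an adjusted p of 0.271, and -0.73 ± 0.56 SE for iWAT against eWAT with an adjusted p of 0.363). The outcomes of the comparisons with eWAT changed when certain single samples were left out. Without BAT replicate 11 eWAT was 1.32 above BAT (adjusted p = 0.0343, edgeR), and without iWAT replicate 14 iWAT was 1.42 below eWAT on the log2 scale (log2 fold change -1.42, adjusted p = 0.0493, edgeR). For iWAT against BAT the estimate was -0.65 without iWAT replicate 14 and 0.63 without BAT replicate 11, and neither passed (adjusted p = 0.255 and 0.290, edgeR).

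The samples with the highest Rbp7 level were those with high levels of endothelial markers (Pecam1, Cdh5, Kdr, Tie1, Emcn). In iWAT replicate 14, the highest of its depot for Rbp7, all 5 markers were at their depot's highest value and summed to an RPKM of 143, against 24.8 to 71.5 in the other iWAT samples. In BAT replicate 11 it was 4 of the 5, with a sum of 88.3 against 44.5 to 70.3 in the other BAT samples. In eWAT the highest Rbp7 level was in replicate 13 (35.9, marker sum 141) and the next in replicate 8 (33.9, marker sum 209), and these 2 samples also had the highest marker sums of the depot. In eWAT replicate 7, the lowest for Rbp7, the marker sum was 82.1, and the lowest sum of the depot was 80.8 in replicate 15. All 5 endothelial markers had reads in all 18 samples, also in the floated adipocytes. Counted by markers at their highest value, the match was not particular to endothelial markers. Of the 5 brown adipocyte markers, 4 were at their depot's highest value in BAT replicate 11, 3 in iWAT replicate 14 and 3 in eWAT replicate 13. In that eWAT sample 0 of the 5 endothelial markers were at their highest. The part of endothelial or brown adipocyte RNA in the Rbp7 level was not tested.

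**Figure D3:**
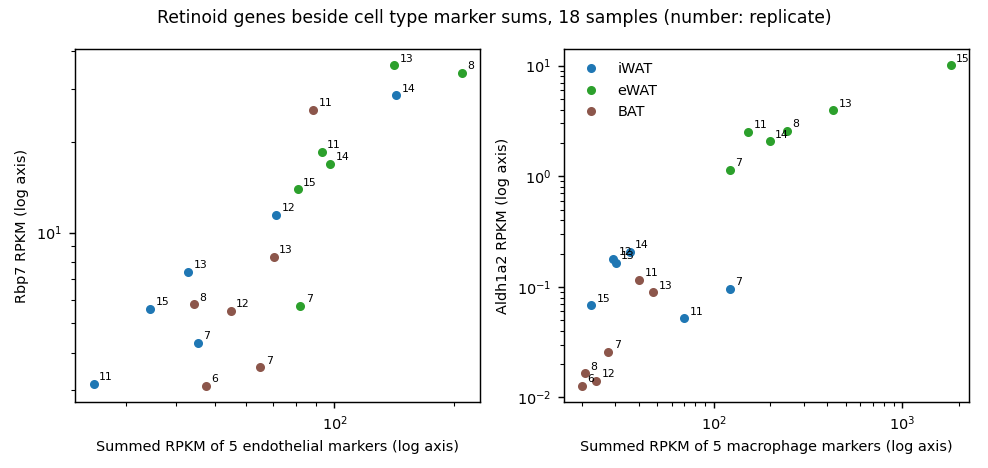
Left, Rbp7 RPKM against the summed RPKM of 5 endothelial markers, and right, Aldh1a2 RPKM against the summed RPKM of 5 macrophage markers, on log axes, each point 1 of 18 samples, coloured by depot and numbered by replicate. iWAT replicate 14, BAT replicate 11 and eWAT replicates 8 and 13 lie at the upper right of their depots on the left, and on the right eWAT replicate 15 lies at 10.0 for Aldh1a2 and 1806 for the markers.

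Stra6 (gene ID 20897, mm9 chr9:57911595-58001804, plus strand), the receptor through which RBP4 delivers retinol to cells, and the cellular retinoic acid-binding proteins Crabp1 (gene ID 12903, mm9 chr9:54612555-54620917, plus strand) and Crabp2 (gene ID 12904, mm9 chr3:87752588-87757298, plus strand) were at the limit of detection. Stra6 had 0 to 1 read per sample in iWAT and eWAT and 0 to 3 reads in BAT, and 9 of 18 samples had none. A count of 3 reads corresponds to an RPKM of 0.0160 to 0.0224 for Stra6 in iWAT, so higher levels were not detected there. Crabp2 had 0 to 4 reads in iWAT, 0 to 2 in eWAT and 0 to 2 in BAT. For Crabp1 no read was counted in any iWAT or BAT sample, which allows an RPKM of up to 0.163 in iWAT and 0.140 in BAT for the shallowest sample. In eWAT 4 of 6 samples had 1 to 4 Crabp1 reads, with the highest counts of 4 in replicates 8 and 15. None of the 3 genes reached 10 reads in any sample, none was tested, and a difference between depots was not detectable at this depth. These limits cover counting error only, since reads were not collapsed to molecules.

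Rdh10 (gene ID 98711, mm9 chr1:16095855-16123815, plus strand) encodes the retinol dehydrogenase of the first oxidation step, and its level was low and even. The lowest, median and highest RPKM were 1.42, 1.98 and 2.45 in BAT, 2.62, 3.02 and 3.49 in iWAT, and 2.64, 2.95 and 3.14 in eWAT, so that all white adipocyte samples were above all BAT samples on the RPKM scale. On reads, iWAT was 1.27-fold above BAT (log2 fold change 0.34 ± 0.14 SE, adjusted p = 0.0378, edgeR). This call was lost without any 1 of iWAT replicates 7, 11 and 15 (adjusted p = 0.0692, 0.0675 and 0.0541, edgeR) or BAT replicates 8, 11, 12 and 13 (0.110, 0.127, 0.0818 and 0.0831). The reads of eWAT and BAT gave -0.06 ± 0.13 SE (adjusted p = 0.689, edgeR), against 0.54 on log2(RPKM + 0.1) with limma (adjusted p = 0.000354), so that the direction depends on the scale. The eWAT transcript has 82.8% of the length of the merged row, which RPKM corrects for and reads do not, and the median over all genes moved as well, from 0.03 on reads to 0.64 on RPKM. For iWAT against eWAT the log2 fold change was 0.35 ± 0.12 SE (adjusted p = 0.0456, edgeR) on reads, with overlapping RPKM ranges, and 0.06 on log2(RPKM + 0.1) (adjusted p = 0.738, limma). That call was lost without any 1 of iWAT replicates 7, 11 and 15 (adjusted p = 0.101, 0.104 and 0.0773, edgeR) or eWAT replicates 8, 11, 13, 14 and 15 (0.0600, 0.0740, 0.0720, 0.0801 and 0.0792). A gene on the opposite strand, LOC100503633 (mm9 chr1:16122843-16123816), overlaps the last part of Rdh10 and had 28 to 40 reads in iWAT and 14 to 32 in BAT. As it is not stated that strand was used in counting, these reads cannot be told apart from those of Rdh10.

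Aldh1a1 (gene ID 11668, mm9 chr19:20676451-20717952, plus strand) encodes retinaldehyde dehydrogenase 1, and it had the highest level of the 3 Aldh1a genes in every sample. The lowest, median and highest RPKM were 2.92, 3.49 and 8.81 in BAT, 42.9, 59.3 and 80.3 in iWAT, and 52.9, 75.6 and 101 in eWAT. No white adipocyte sample overlapped with BAT. Its reads in iWAT were 11.3-fold those in BAT (3.50 ± 0.28 SE on the log2 scale, adjusted p = 6.47e-08, edgeR) and in eWAT 13.6-fold those in BAT (3.77 ± 0.26 SE, adjusted p = 3.37e-10, edgeR). Between iWAT and eWAT the ranges overlapped and the difference of -0.32 ± 0.23 SE did not pass (adjusted p = 0.339, edgeR). The highest BAT value was that of replicate 12, the sample with the high skeletal muscle sum, and without it iWAT was 3.81 and eWAT 4.08 above BAT on the log2 scale. The highest eWAT value was that of replicate 11, where all 5 mesothelial markers (Msln, Upk3b, Lrrn4, Wt1, Krt19) were at their highest of the depot. In the highest Aldh1a1 samples of iWAT and of BAT this held for 1 of the 5. The part of mesothelium in the Aldh1a1 level was not tested. The 250 bases before the RefSeq start of Aldh1a1 (mm9 chr19:20676208-20676457, plus strand), shown for the gene with the highest level among the enzymes, hold a CCAAT box, in capitals, whose first base is 72 bases before the start:
Aldh1a1: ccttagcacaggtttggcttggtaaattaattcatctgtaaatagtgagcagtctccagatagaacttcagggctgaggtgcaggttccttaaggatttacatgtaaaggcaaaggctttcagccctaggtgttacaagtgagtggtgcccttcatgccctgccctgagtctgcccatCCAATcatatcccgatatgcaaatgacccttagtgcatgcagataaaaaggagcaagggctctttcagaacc
CCAAT, a motif added to the search once these windows had been read, was on either strand in 4 of the 11 windows and in 33.8% of all 32851 windows.

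Aldh1a1 has a close relative in the mouse, Aldh1a7, which encodes an enzyme of the same family. Of the 2004 stretches of 50 bases in the longest annotated Aldh1a1 transcript, 151 (7.53%) also occur in an Aldh1a7 transcript, and none of the other 8 genes shares a stretch of this length with another coding gene. Aldh1a7 itself had RPKM that averaged 28.03 ± 2.41 (SD, n = 6) in BAT, 66.5 ± 11.1 (SD, n = 6) in iWAT, with eWAT between them at 47.0 ± 11.99 (SD, n = 6). In BAT its lowest sample (24.2) was therefore above the highest Aldh1a1 sample (8.81). How reads in the shared stretches were assigned is not stated, so the low Aldh1a1 level of BAT in particular is uncertain, and that part was not tested. Aldh1a7 was higher in iWAT than in BAT by 0.97 ± 0.12 SE (adjusted p = 5.82e-06, edgeR) and in eWAT than in BAT by 0.40 ± 0.15 SE (adjusted p = 0.0224, edgeR), on the log2 scale.

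Aldh1a2 (gene ID 19378, mm9 chr9:71063596-71144050, plus strand), which encodes retinaldehyde dehydrogenase 2, the enzyme that makes most of the retinoic acid of the early embryo, was found mainly in eWAT. The lowest, median and highest RPKM were 0.0128, 0.0212 and 0.116 in BAT, 0.0518, 0.130 and 0.209 in iWAT, and 1.15, 2.55 and 10.0 in eWAT. Reads numbered 88 to 745 in eWAT, 3 to 15 in iWAT and 1 to 8 in BAT, and no eWAT sample overlapped with either of the other depots. The gene passed the limit of 10 reads in 6 samples only through eWAT. The log2 fold change was 6.01 ± 0.61 SE for eWAT against BAT (adjusted p = 6.95e-08, edgeR) and -4.81 ± 0.55 SE for iWAT against eWAT (adjusted p = 5.61e-06, edgeR). Its row is the same in both kinds of file, in position, length and number of exons, and with such shared rows alone the values were 6.14 and -4.80 (adjusted p = 3.66e-08 and 5.28e-06, edgeR). Between iWAT and BAT it had too few reads to be tested, and the ranges overlapped.

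The highest Aldh1a2 level, 10.0 in eWAT replicate 15, was in the sample with the highest macrophage sum, and the other 5 eWAT samples were between 1.15 and 3.95. Without that sample the log2 fold changes were 5.38 against BAT and -4.18 for iWAT against eWAT (adjusted p = 6.66e-09 and 8.87e-07, edgeR). The macrophage sum was 122 to 1806 in eWAT, 22.4 to 122 in iWAT and 20.1 to 48.0 in BAT. In iWAT replicate 7, where this sum was 122, Aldh1a2 was at 0.0963, and in eWAT replicate 7, where it was also 122, Aldh1a2 was at 1.15. Of 5 mesothelial markers, Msln, Upk3b, Wt1 and Krt19 had 0.0972 to 7.25 RPKM in eWAT and at most 0.0671 in any iWAT or BAT sample. The other, Lrrn4, had 10.2 to 18.8 RPKM in eWAT, 11.02 to 13.4 in BAT and 3.63 to 4.59 in iWAT, so that eWAT and BAT overlapped. Within eWAT the sum of the 5, of which Lrrn4 was the largest part, was lowest, 15.5, in replicate 15 and highest, 30.7, in replicate 11, where Aldh1a2 was at 2.53. In iWAT and BAT, where Aldh1a2 had at most 15 reads, its highest samples were those with the highest endothelial sums. The part of macrophages, mesothelium and endothelium in the Aldh1a2 level was not tested. The 250 bases before its start (mm9 chr9:71063346-71063595, plus strand), shown as those of the gene with the largest difference, are rich in G and C (77.6%, against 46.4% in the Aldh1a1 window), and hold a CCAAT box that begins 36 bases before the start:
Aldh1a2: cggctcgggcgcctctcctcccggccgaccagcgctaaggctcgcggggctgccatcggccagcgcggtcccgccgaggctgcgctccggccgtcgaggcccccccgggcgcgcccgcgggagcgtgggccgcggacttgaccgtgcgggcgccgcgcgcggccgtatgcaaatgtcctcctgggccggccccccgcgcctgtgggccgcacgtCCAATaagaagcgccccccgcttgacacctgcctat

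Aldh1a3 (gene ID 56847, mm9 chr7:73535778-73572363, minus strand), the third enzyme of the family, was low in all depots. The lowest, median and highest RPKM were 0.0995, 0.147 and 0.286 in BAT, 0.0708, 0.122 and 0.329 in iWAT, and 0.265, 0.389 and 0.897 in eWAT, with 8 to 100 reads per sample. The eWAT range overlapped with both others, though the eWAT mean of 0.478 ± 0.235 (SD, n = 6) was above those of iWAT (0.177 ± 0.119, SD, n = 6) and BAT (0.171 ± 0.0648, SD, n = 6). In edgeR's test none of the 3 comparisons passed: -0.21 ± 0.39 SE for iWAT against BAT (adjusted p = 0.649), 0.81 ± 0.39 SE for eWAT against BAT (adjusted p = 0.0708) and -1.07 ± 0.39 SE for iWAT against eWAT (adjusted p = 0.0524). Single samples decided this in the comparisons with eWAT: eWAT against BAT passed without eWAT replicate 14 (0.93, adjusted p = 0.0451, edgeR) or BAT replicate 13 (0.99, 0.0389). For iWAT against eWAT it passed without iWAT replicates 7 or 12 (-1.35 and -1.32, adjusted p = 0.0200 and 0.0276, edgeR) and without eWAT replicates 7, 11 or 14 (-1.15, -1.16 and -1.19, adjusted p = 0.0466, 0.0473 and 0.0382). The highest level was again that of eWAT replicate 15, where all 5 macrophage markers were at their highest. In iWAT Aldh1a3 was at 0.329 in replicate 7 and at 0.328 in replicate 12, with macrophage sums of 122 and 29.3, and the part of macrophages in its level was not tested.

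The division of the summed Aldh1a RPKM between the 3 enzymes differed between iWAT and the other depots. Aldh1a1 held 94.5% ± 3.29 (SD, n = 6) in BAT and 94.2% ± 5.72 (SD, n = 6) in eWAT, against 99.5% ± 0.269 (SD, n = 6) in iWAT. The share was higher in all 6 iWAT samples (lowest 99.2%) than in any eWAT (highest 98.2%) or BAT (highest 98.2%) sample. The differences were 4.98 percentage points for iWAT against BAT and 5.30 for iWAT against eWAT, each with a p of 0.00216 (adjusted over 3 comparisons, 0.00325) in a two-sided exact permutation test, the smallest p that 924 splits of 6 against 6 can give. Between eWAT and BAT the difference was -0.325 percentage points (p = 0.918, exact permutation test), and without eWAT replicate 15 it was 1.93. Taken over reads in place of RPKM, the differences were 8.96 for iWAT against BAT and 5.84 for iWAT against eWAT (adjusted p = 0.00325 for each, exact permutation test). With all eWAT transcripts of a gene summed, the difference between iWAT and eWAT was 11.8 (adjusted p = 0.00325, exact permutation test). That sum takes in 1 eWAT transcript of Aldh1a1, 2 of Aldh1a2 and 7 of Aldh1a3. It lowers the Aldh1a1 share of eWAT by construction, so the 11.8 is no further support. The rest of the summed Aldh1a RPKM was mostly Aldh1a2 in eWAT (5.18% ± 5.32, SD, n = 6, with 15.7% in replicate 15) and mostly Aldh1a3 in BAT (4.27% ± 2.099, SD, n = 6). The sums themselves were 43.1 to 80.6 RPKM in iWAT, 63.9 to 104 in eWAT and 3.03 to 8.98 in BAT, and in BAT the share rests on 1 to 8 reads of Aldh1a2 and 15 to 37 reads of Aldh1a3 per sample. Mean RPKM in iWAT and BAT were 0.177 and 0.171 for Aldh1a3 and 0.128 and 0.0457 for Aldh1a2, against 59.2 and 4.33 for Aldh1a1. For iWAT against BAT the share thus largely restates the Aldh1a1 difference given above and is not a separate result. For iWAT against eWAT the gap lay mostly in Aldh1a2, with mean shares of 0.212% in iWAT and 5.18% in eWAT. Aldh1a3 held 0.312% and 0.648%. There the share largely restates the Aldh1a2 difference, of a gene tested only through eWAT, and is not a separate result either.

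**Figure D4:**
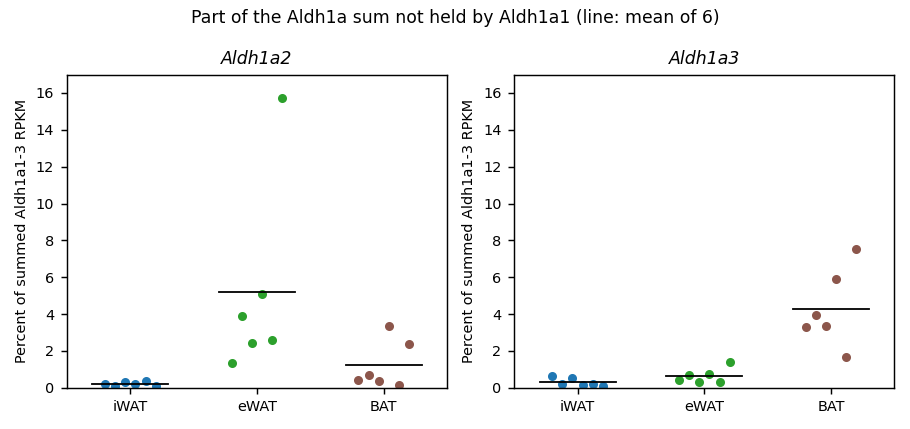
Percent of the summed RPKM of Aldh1a1, Aldh1a2 and Aldh1a3 held by Aldh1a2 (left) and Aldh1a3 (right) in each sample, on linear axes from 0, with a line at the mean of 6 samples. Aldh1a2 holds up to 15.7% in eWAT, Aldh1a3 holds 1.64% to 7.53% in BAT, and both are under 0.7% in all iWAT samples.

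Other genes of retinoid metabolism and signaling were taken from a list of 46, of which 28 had enough reads to be tested. Between iWAT and BAT 14 were higher in iWAT and 8 lower (median log2 fold change 0.42, against 0.01 over all genes tested), between eWAT and BAT 11 were higher in eWAT and 8 lower (0.17 against 0.03), and between iWAT and eWAT 6 were higher in iWAT and 2 lower (0.13 against 0.00). These counts stand beside the 67.6%, 70.3% and 25.6% of all genes that passed. The comparisons with eWAT depend on the scale: on log2(RPKM + 0.1) with limma, 18 pathway genes were higher and 5 lower in eWAT than in BAT, and 2 were higher and 15 lower in iWAT than in eWAT, in fits where 12192 and 4123, and 1027 and 8961, of 21148 genes were higher and lower. Among the 7 receptors and carriers, Rxra and Rara, which encode the alpha forms of the retinoid X and retinoic acid receptors, were higher (adjusted p under 0.05 in edgeR, as for each gene called higher or lower here) in iWAT than in BAT by 1.48 and 1.22 and in eWAT than in BAT by 1.30 and 1.10 on the log2 scale, and Rarg (0.71 and 0.61) and Fabp5 (0.70 and 1.09), a fatty acid-binding protein that can also carry retinoic acid, were higher as well. Rarb, itself a target of retinoic acid, was lower in both (-1.58 and -1.96), as was Rxrb (-1.02 and -1.22). Rxrg did not pass for iWAT against BAT (-0.29) and was lower in eWAT than in BAT (-0.88) and higher in iWAT than in eWAT (0.54) on reads, at mean RPKM of 7.21 in BAT, 7.29 in eWAT and 7.05 in iWAT.

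Among 18 oxidoreductases of retinol and retinal 9 were tested. Dhrs3, a retinal reductase, was higher than in BAT in iWAT (0.60) and eWAT (0.87). Adh1 was higher in iWAT than in BAT (0.50, adjusted p = 0.00299, edgeR) and had 0.09 in eWAT (adjusted p = 0.594). Rdh13 (-1.93 and -2.11), Rdh14 (-0.88 and -0.97) and Dhrs4 (-0.79 and -1.27) were lower in iWAT and in eWAT than in BAT, although for Rdh14 the mean RPKM was higher in eWAT (8.92) than in BAT (6.00), where the eWAT transcript is shorter than the merged row. Rdh11 was lower in iWAT than in BAT (-0.59) and did not pass for eWAT (-0.42), and Rdh5 passed in no comparison. Dhrs9, a retinol dehydrogenase, had 0.0218 to 0.201 RPKM in iWAT, 0.400 to 10.6 in eWAT and 2.07 to 3.91 in BAT. Its log2 fold change was -5.22 ± 0.39 SE for iWAT against BAT (adjusted p = 4.15e-08, edgeR) and -4.67 ± 0.87 SE for iWAT against eWAT (adjusted p = 0.000792, edgeR). The eWAT median of 0.638 was far under its highest value, which came from replicate 15, the sample with the macrophage sum of 1806.

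Storage and supply genes gave a mixed picture. Lipe, which encodes hormone-sensitive lipase, an enzyme that also cleaves retinyl esters, was higher in iWAT than in BAT (0.67, adjusted p = 2.28e-05, edgeR), as was Ces1d (0.53, 0.00018), and neither passed on reads for eWAT against BAT (0.24 and -0.03), although the RPKM of Lipe did not overlap between these depots (means of 392 and 165). Dgat1, an acyltransferase that can esterify retinol, was lower in eWAT than in BAT (-1.02) on reads at mean RPKM of 44.4 and 44.2. Lrat, the main retinol esterifying enzyme of liver, had 0 to 6 reads per sample. Bco2, a carotenoid-cleaving enzyme, was higher in iWAT (2.06) and eWAT (1.74) than in BAT, and Scarb1, a receptor that takes up carotenoids, was also higher (0.56 and 0.80). Of the genes that retinoids are known to induce, Nrip1 (4.07 and 3.41), Rarres2 (3.31 and 2.78), which encodes the adipokine chemerin, and Tgm2 (0.57 and 0.55) were higher in iWAT and in eWAT than in BAT, and Rarres1 passed in no comparison. Cyp26a1 and Cyp26c1, which encode enzymes that degrade retinoic acid, had too few reads to be tested, and Cyp26b1 passed in no comparison. Between the white depots, Rarres2 (0.48), Dgat1 (0.90), Dhrs4 (0.43), Aldh1a7 (0.52) and Lipe (0.38) were higher in iWAT on reads. The mean RPKM was also higher in iWAT for the first 4, but for Lipe it was 318 in iWAT and 392 in eWAT.

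**Figure D5:**
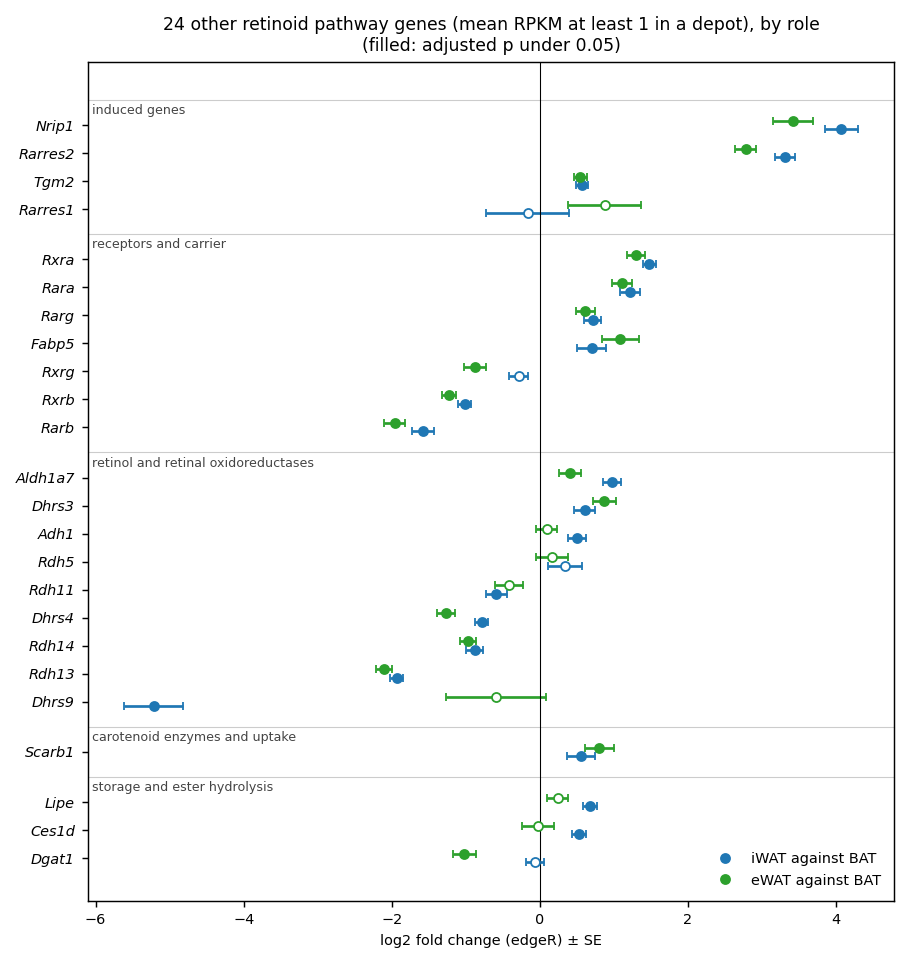
log2 fold change ± SE from edgeR of the 24 tested pathway genes whose mean RPKM reached 1 in any depot, grouped by role, for iWAT (blue) and eWAT (green) against BAT, filled where the adjusted p is under 0.05. Nrip1 and Rarres2 lie between 2.78 and 4.07, Rdh13, Rarb and Rxrb lie below 0 in both comparisons, and Dhrs9 lies at -5.22 for iWAT and -0.59 for eWAT.

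The genes whose log2(RPKM + 0.1) followed each of the expressed retinoid genes most closely over the 18 samples were also looked up among 13869 genes. As many genes differ between depots, such values over 18 samples include the difference between depots, and they are given as a description. For Rbp4 they were Retn, which encodes the adipokine resistin (Pearson r = 0.993, n = 18), and Tmem98 (0.990). Retn had mean RPKM of 6.68 in BAT, 539 in eWAT and 298 in iWAT. For Aldh1a1 they were E030003E18Rik (0.996) and Eepd1 (0.990), and for Rbp7 Gpr56 (0.948) and Tinagl1 (0.943). For Rdh10 they were BC057022 (0.947) and Pnp2 (0.923). For Aldh1a2 they were Arpc2 (0.993), an actin regulator at mean RPKM of 8.39 in BAT, 74.0 in eWAT and 11.96 in iWAT, and Dclk1 (0.992). After subtraction of each depot's mean, the r was 0.939 and 0.947 for the genes alike to Rbp7, 0.889 and 0.866 for those alike to Rbp4, 0.922 and 0.696 for those alike to Aldh1a1, 0.927 and 0.919 for those alike to Aldh1a2, and 0.820 and 0.729 for those alike to Rdh10.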

How the data were processed

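Total RNA of 18 samples (6 iWAT, 6 eWAT, 6 BAT) had been sequenced. The submitters' processing notes name cutadapt (version 1.16) and HISAT2 (version 2.1.0), and the study mapped reads to mm9 and used the Genomatix Genome Analyzer. The counter, the annotation and the use of strand are not given in the sources used here. The authors deposited, for each row, a read count, which is not normalized, and an RPKM, which was found to be the count over the product of row length and a total of reads per sample. The iWAT and BAT files hold 53445 rows of genes with merged exons and the eWAT files 189660 transcript rows. The highest of several eWAT transcripts by reads was used.

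Differences between depots were taken from the counts in R (version 4.3.3) by edgeR (version 4.0.16), with TMM normalization on the totals behind the RPKM, no block, and a minimum of 10 reads in 6 or more samples for a row to enter: iWAT against BAT on 12 samples and all merged rows, the other comparisons on 18 samples with 1 row per symbol. A Benjamini-Hochberg adjusted p under 0.05 passed. The standard error was derived from the F statistic. Nothing in the labels says how the samples of a depot were raised or collected, so p-values measure the spread between these samples. The code was tested on simulated data. limma (version 3.58.1) on log2 RPKM, DESeq2 (version 1.42.0) and other filters, scalings, rows and sample sets were tried as alternatives, and exact permutation tests were run in Python (version 3.11.15) with numpy (version 2.4.6). The 9 genes, the pathway list and the marker lists were chosen with earlier results of these data known. All 9 genes were described, together with the 24 pathway genes whose mean RPKM reached 1 in any depot and the 2 genes most alike to each expressed gene, and Bco2, Lrat, Cyp26a1, Cyp26b1, Cyp26c1, the overlapping LOC100503633 and the marker genes were named after their values were seen. Some genes of the pathway list are counted but not reported here by name.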

Additional observations from a re-analysis of the deposited data

Results flagged for a closer look

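Among 22 measures of a gene or share in the 6 samples of a depot, 5 had a single sample far from the others (its gap to the nearest sample, over the whole range, was above Dixon's 95% critical value). For independent, normally distributed measures about 1 in 20 groups would have such a sample by chance, or 1.1 of 22. The measures here are linked, since the shares are built from the Aldh1a levels, so the 5 cannot be weighed against that number. The Rbp7 RPKM of iWAT replicate 14 was 28.5, against 3.16 to 11.4 in the other 5 samples. The Rbp7 RPKM of BAT replicate 11 was 25.5, against 3.11 to 8.31 in the others. The Aldh1a1 RPKM of BAT replicate 12 was 8.81, against 2.92 to 4.16 in the others. The Aldh1a2 RPKM of eWAT replicate 15 was 10.0, against 1.15 to 3.95 in the others. The Aldh1a1 share of the summed Aldh1a RPKM was 82.9% in eWAT replicate 15, against 94.1% to 98.2% in the others.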

How the results depend on the processing

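The differences of Rbp4 and Aldh1a1 from BAT and of Aldh1a2 in eWAT kept their direction and passed under every alternative in which they were tested. Aldh1a2 met the limit of 10 reads in 6 samples only through its eWAT reads, so its passing in those fits is no separate support. With 10 reads in every sample it was not tested. Leaving out 1 sample at a time gave 12307 to 13291 genes passing for iWAT against BAT, 12087 to 12781 for eWAT against BAT and 3883 to 5156 for iWAT against eWAT. Among the retinoid genes these counts were 2 to 3, 3 to 4 and 1 to 3, and among the pathway genes 22 to 24, 18 to 22 and 7 to 11. The Aldh1a1 share differed by 4.10 to 5.72, -1.20 to 1.93 and 3.04 to 6.11 percentage points. For eWAT against BAT it differed by 3.11 with reads in place of RPKM (p = 0.346) and by -6.79 with summed rows (p = 0.0952, exact permutation tests). Summed rows hold 1 eWAT transcript of Aldh1a1, 2 of Aldh1a2 and 7 of Aldh1a3, which by construction lowers the Aldh1a1 share of eWAT. With a minimum fold of 1.5 the genes passing numbered 7206, 7920 and 1311, the pathway genes 13 for iWAT against BAT and 2 for iWAT against eWAT, and the retinoid genes 1 for iWAT against eWAT. With the rows shared by both kinds of file they numbered 3888 for eWAT against BAT and 737 for iWAT against eWAT, with 1 and 1 retinoid genes and 2 and 2 pathway genes, since fewer genes were tested. For eWAT against BAT 6 retinoid genes passed with limma at either pseudocount (16315 and 16004 of 21148 genes) and 5 without scaling (13488 of 18383 genes). For iWAT against eWAT the genes passing numbered 9988 and 9729 with limma (pseudocounts 0.1 and 1), 12186 with the median over transcripts and 13605 with summed rows, with 17, 16, 18 and 27 pathway genes (15 and 14 of those with limma lower in iWAT). The retinoid genes passing there were 0 of 4 tested in edgeR with 10 reads in every sample (2 at an unadjusted p under 0.05, and 5 pathway genes), 4 with DESeq2, 1 without a filter and 5 with summed rows.

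Rbp7 between iWAT and BAT, near 0, turned to -0.0316 with 10 reads in every sample, -0.0319 with all 18 samples and -0.11 without eWAT 15 and BAT 12 (-0.65 to 0.63 without 1 sample). Aldh1a3 there turned to 0.00254 with limma at a pseudocount of 1 and 0.0533 without scaling. Rdh10 between eWAT and BAT turned to 0.54 and 0.40 with limma, 0.33 with the median over transcripts and 0.27 without scaling, (-0.145 to 0.00593 without 1 sample), and to -0.0267 for iWAT against eWAT with the median. Aldh1a1 between iWAT and eWAT turned to 1.52 with summed rows. It has 1 eWAT transcript, so its eWAT reads stayed as they were there, while those of genes with several transcripts were added up. The cause was not tested. Without scaling, the median of all genes moved by 0.26 and 0.33 in the comparisons with BAT.

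Replicate numbers recur between depots, but same-numbered samples did not deviate together (correlations of -0.037 to 0.125 over 4 pairs, -0.159 to 0.056 over 4 and -0.325 to 0.145 over 5), so the numbers were not used as pairs, and whether they name a mouse is not stated. With the replicate number as a block, 11711, 11401 and 3153 genes passed, and 3, 3 and 1 retinoid genes. Rbp7 between iWAT and BAT was -0.62 and Rdh10 between eWAT and BAT 0.0582 under the block. Depth limits Stra6, Crabp1 and Crabp2, which had at most 4 reads in a sample.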
